A study of Mus musculus with 32 samples.

Results

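Regulatory T cells (Tregs) cultured with an agonist of the receptor 4-1BB were compared at 36 h and 18 h, with 3 libraries at each time. These 6 libraries, chosen by their titles, were 6 of the 32 in the series. Foxp3-GFP+ cells were taken from C57BL/6 mice of 2.5 months that carry the Foxp3-IRES-GFP knock-in, whose reporter marks cells that transcribe Foxp3. Coated anti-CD3 and anti-CD28 activated them, with IL-2 at 10 ng/ml. The agonist was the antibody 3H3 at 10 µg/ml, given for 36 h or 18 h. Control cultures had the same activation and IL-2 with no agonist, 3 libraries each at 36 h and 18 h. Cultures with a TNFR2 agonist (STAR2, 12 ng/ml) and with a DR3 agonist (TL1A, 12 ng/ml) also had 3 libraries at each time, and doses were not matched between agonists. No label says that the libraries of a group came from separate animals or cultures, so p-values measure the spread between these libraries, which may be technical. In bulk RNA, a change in the share of some cells and a change in RNA per cell cannot be told apart.

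4-1BB, encoded by Tnfrsf9, is a costimulatory receptor of the tumour necrosis factor (TNF) receptor superfamily that T cells display after activation. On binding its ligand or an agonist antibody it recruits TRAF adaptors, which feed the NF-kB and MAP kinase pathways. Tregs stimulated through the T cell receptor, CD28 and the IL-2 receptor first grow, then copy their DNA and divide, and on the way lower the genes of the resting, recirculating state.

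The 6 libraries held 18696907 to 21641427 expected counts, against 11880270 to 38083925 over the series. Expected counts are estimated reads per gene, and CPM are those counts scaled to a common library total. Fold changes are given on the log2 scale with their standard error (SE) after the ± sign. Replicates lay close together: the median coefficient of variation over 9710 genes at 5 CPM or more was 3.55% at 36 h and 3.41% at 18 h. The markers that define Tregs were present in all 6 libraries, with Foxp3 at 355, 380.2 and 381 CPM at 36 h, against 651, 627 and 645 CPM at 18 h. Summed B cell markers were 297.9 to 309.1 CPM at 36 h, against 429.7 to 436.8 CPM at 18 h, and most of that was Ighm, while Ms4a1 and Cd79a averaged 0.393 CPM or less at both times. Of 12 B cell markers tested, 2 rose and 4 fell; their part in other results was not tested. Summed myeloid and dendritic cell markers overlapped between the times (30.5 to 31.3 CPM at 36 h and 30.6 to 34.6 CPM at 18 h), with 0 of 9 called and Tyrobp, Clec9a, Siglech and S100a8 at 0. Markers of CD8, NK and gamma-delta T cells summed to 29.8 to 32.7 CPM at 36 h, against 19.3 to 23.2 CPM at 18 h, with Klrb1c, Ncr1, Klra8 and Klre1 at 0; the 1 that rose was Eomes, described below with its values, and the 1 that fell was Trdc.

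Of 14313 genes tested, 7313 (51.1%) differed between 36 h and 18 h at an adjusted p under 0.05 (edgeR quasi-likelihood test, Benjamini-Hochberg adjustment over all genes tested), the threshold used for every call below. They divided evenly, with 3645 higher (25.5%) and 3668 lower (25.6%) at 36 h. The changes were mostly small: the median size among called genes was 0.36 on the log2 scale, and the median over all genes tested was -0.01. Changes of 2-fold or more numbered 1079 (7.54%), and these leaned upward, with 722 higher (5.04%) and 357 lower (2.49%). In 7071 of the called genes the 3 libraries at 36 h lay wholly apart from the 3 at 18 h. Over all 14313 genes tested, called or not, 8502 lay apart in this way, so a lack of overlap was common. Genes named for the size of their change were taken only where the times did not overlap, so that separation was set by the rule. With this many calls, a list of genes is described by its counts beside these shares.

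The genes of G2 and mitosis moved most as a group. All 35 members tested rose, with a median log2 fold change of 1.87 and a range of 1.28 (Cdc25b) to 2.86 (Ccnb2). Ccnb2, which encodes the mitotic cyclin B2 (ENSMUSG00000032218, chr9:70407692-70421547 on the minus strand, mm10), was at 73.99, 73.3 and 70.7 CPM at 36 h, against 10.6, 10.4 and 9.11 CPM at 18 h. The 36 h libraries were all far above the 18 h ones (log2 fold change 2.86 ± 0.072, adjusted p = 5.67e-34). Hmmr, whose product acts at the mitotic spindle, was at 125, 118 and 118 CPM at 36 h, against 18.3, 20.6 and 19.4 CPM at 18 h, again with no overlap (log2 fold change 2.63 ± 0.079, adjusted p = 4.54e-22). Tpx2, a spindle assembly factor that activates Aurora A, was at 199, 203 and 196 CPM at 36 h, against 49.3, 50.5 and 47.4 CPM at 18 h. Nek2, a centrosome kinase, was at 84.6, 83.3 and 85.1 CPM at 36 h, against 18.02, 19.4 and 18.3 CPM at 18 h. Both rose (log2 fold change 2.02 ± 0.049, adjusted p = 5.67e-34 for Tpx2; log2 fold change 2.18 ± 0.057, adjusted p = 1.98e-33 for Nek2). Birc5, which encodes survivin of the chromosomal passenger complex, was at 115, 115 and 108 CPM at 36 h, against 30.6, 32.1 and 29.96 CPM at 18 h (log2 fold change 1.87 ± 0.053, adjusted p = 3.17e-32). Other division genes stood among the 15 largest rises of the whole comparison. Prr11 was at 56.1, 56.7 and 58.8 CPM at 36 h, against 10.4, 11.5 and 10.1 CPM at 18 h. Pif1, a DNA helicase, was at 21.7, 21.5 and 22.1 CPM at 36 h, against 3.79, 4.41 and 3.002 CPM at 18 h. Arhgap19, a GTPase activating protein, was at 76.3, 77.8 and 78.5 CPM at 36 h, against 13.4, 14.04 and 14.8 CPM at 18 h. The log2 fold changes of these 3 genes were 2.42, 2.53 and 2.46. The rule for the largest rises took only genes whose times did not overlap. The same list also rose in control cultures, in 35 of 35 members with a median of 2.04, against a background of 52.2% of genes called over time in control. The difference between the time changes was called for 3 of the 35, Kif11, Ccna2 and Nusap1, each with a smaller rise under the agonist; they are named because their values were seen, and the calls of Kif11 and Ccna2 ended without the libraries of high ribosomal RNA content described below.

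Promoters of the list are shown because its members moved together. Genes of G2 and mitosis commonly carry a cell cycle homology region, whose core is TTTGAA, with CCAAT boxes nearby. RefSeq promoters (GRCm38.p6, 250 bases before to 50 after each start) were found for 29 of the 35 members, 31 promoters in all, and searched on both strands. TTTGAA occurred in 23 (74.2%) and CCAAT in 26 (83.9%), against 17.9% and 37.4% of 32851 promoters of the same length. Both occurred in 21 (67.7%), against 6.95% of all promoters. TTTNNCGC, a form of the E2F site, occurred in 1 (3.23%), against 5.17% of all. The promoters of Ccnb2 (chr9:70421505-70421804, minus strand), Cenpa, the centromeric histone gene (chr5:30666636-30666935, plus strand), and Nek2 (chr1:191821223-191821522, plus strand) follow, 5′ to 3′, in lower case with each match in capitals; a CCAAT box on the other strand reads as its reverse complement, ATTGG.
Ccnb2: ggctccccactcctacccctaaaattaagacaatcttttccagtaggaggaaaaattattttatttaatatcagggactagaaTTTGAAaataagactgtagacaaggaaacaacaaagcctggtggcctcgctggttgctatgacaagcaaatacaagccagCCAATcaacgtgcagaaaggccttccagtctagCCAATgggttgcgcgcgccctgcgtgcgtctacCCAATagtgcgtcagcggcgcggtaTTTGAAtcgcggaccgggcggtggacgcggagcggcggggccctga
Cenpa: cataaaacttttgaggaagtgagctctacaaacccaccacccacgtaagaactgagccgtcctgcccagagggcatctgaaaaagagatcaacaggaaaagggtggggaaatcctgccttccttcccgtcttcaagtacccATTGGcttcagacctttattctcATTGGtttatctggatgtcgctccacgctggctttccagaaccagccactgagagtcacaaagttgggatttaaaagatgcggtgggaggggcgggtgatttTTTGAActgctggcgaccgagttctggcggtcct
Nek2: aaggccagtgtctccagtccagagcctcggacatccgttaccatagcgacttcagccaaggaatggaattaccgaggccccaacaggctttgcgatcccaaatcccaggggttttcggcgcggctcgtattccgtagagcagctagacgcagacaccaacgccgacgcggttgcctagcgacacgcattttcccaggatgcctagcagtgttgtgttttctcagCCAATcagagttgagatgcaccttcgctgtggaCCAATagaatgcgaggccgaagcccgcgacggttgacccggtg
Ccnb2, the largest rise of the list, held TTTGAA 2 times and CCAAT 3 times, and Cenpa held TTTGAA 1 time and CCAAT 2 times. Nek2 rose (log2 fold change 2.18) with CCAAT 2 times and no TTTGAA in its window, and the promoter of Nusap1, another member, held neither. A match is a description of the sequence and says nothing of the factors bound there.

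Genes of DNA replication rose less steeply. Of 39 tested, 32 rose and 2 fell, with a median log2 fold change of 0.41 (1 fell without replicate 3 at 18 h or without replicate 1 at 36 h). Ribonucleotide reductase, which makes deoxynucleotides, rose in both subunits: Rrm2 was at 434, 439 and 435 CPM at 36 h, against 132, 134 and 133 CPM at 18 h (log2 fold change 1.71 ± 0.048, adjusted p = 2.52e-28). Rrm1 was at 673, 670.3 and 669.6 CPM at 36 h, against 327, 322 and 319 CPM at 18 h (log2 fold change 1.06 ± 0.036, adjusted p = 5.69e-29). In both genes the replicates nearly coincided within a time and the times did not overlap. Tyms, thymidylate synthase, was at 159.9, 155 and 148 CPM at 36 h, against 75.8, 77.8 and 81.5 CPM at 18 h. Mcm10, a replication initiation factor, was at 156, 155 and 147 CPM at 36 h, against 80.1, 81.9 and 82.5 CPM at 18 h (log2 fold changes 0.98 and 0.91). Among 21 G1 cyclins, CDKs and inhibitors, 16 rose and 2 fell, with a median of 0.71. Ccne1, which encodes cyclin E1, was at 69.8, 68.1 and 66.5 CPM at 36 h, against 24.7, 25.3 and 25.2 CPM at 18 h (log2 fold change 1.44 ± 0.06, adjusted p = 1.22e-25). E2f2 was at 80.5, 84.5 and 81.3 CPM at 36 h, against 33.2, 34.1 and 36.8 CPM at 18 h (log2 fold change 1.24 ± 0.055, adjusted p = 1.06e-24). Cdkn2d, which encodes the CDK inhibitor p19, was at 16.3, 16.3 and 16.9 CPM at 36 h, against 5.01, 4.88 and 3.65 CPM at 18 h (log2 fold change 1.86 ± 0.10, adjusted p = 6.52e-21). Ccnd2, cyclin D2 of early G1, went the other way and was at 1699, 1711 and 1722 CPM at 36 h, against 2725, 2596 and 2698 CPM at 18 h, lower in every 36 h library (log2 fold change -0.64 ± 0.036, adjusted p = 1.19e-20). Of 25 p53 targets, 18 rose and 4 fell (median 0.48). Gtse1, itself a gene of S and G2 phase, was at 126, 134 and 126 CPM at 36 h, against 35.7, 37.7 and 35.5 CPM at 18 h. Ccng1, cyclin G1, was at 428, 417 and 410.0 CPM at 36 h, against 238, 235 and 229 CPM at 18 h. Plk2 was at 36.4, 37.1 and 36.1 CPM at 36 h, against 15.5, 16.8 and 15.4 CPM at 18 h. Sesn2, a stress-inducible regulator of mTORC1, was at 73.9, 80.8 and 76.3 CPM at 36 h, against 35.1, 39.1 and 40.7 CPM at 18 h. All 4 rose without overlap, with log2 fold changes of 1.82, 0.84, 1.2 and 1.01.

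**Figure D1:**
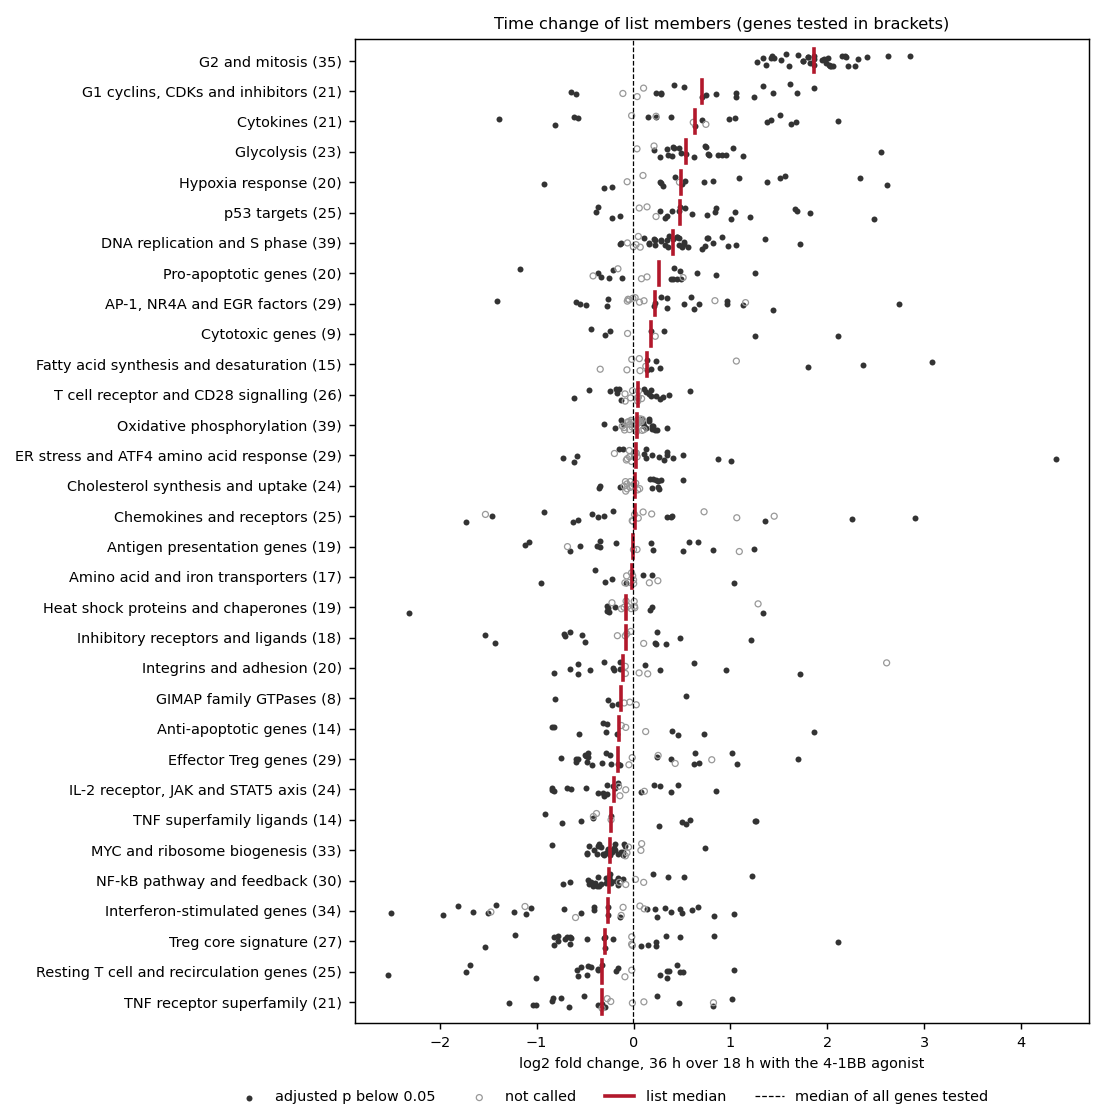
Log2 fold change at 36 h over 18 h with the 4-1BB agonist for each tested member of 32 pathway lists, 1 row per list, with filled points for members at an adjusted p under 0.05 and a red bar at the list median. All 35 G2 and mitosis genes lie at 1.28 or above, while the TNF receptor superfamily, resting T cell and Treg core lists have the lowest medians.

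Glycolysis rose almost as a block. Of 23 glycolysis genes, 21 rose and none fell, with a median log2 fold change of 0.54. Slc16a3, the lactate exporter MCT4, was at 125, 126 and 128 CPM at 36 h, against 21.5, 21.2 and 22.1 CPM at 18 h, the steepest rise of the list (log2 fold change 2.55 ± 0.064, adjusted p = 1.63e-30). Among the enzymes, Tpi1 was at 804, 826 and 808 CPM at 36 h, against 362, 375 and 379 CPM at 18 h. Pgk1 was at 609.8, 567 and 579 CPM at 36 h, against 276, 290.1 and 299.5 CPM at 18 h. Eno1 was at 1456, 1515 and 1487 CPM at 36 h, against 799, 789 and 788 CPM at 18 h. All 3 enzymes were higher in every 36 h library (log2 fold change 1.13 ± 0.037, adjusted p = 1.34e-29 for Tpi1; log2 fold changes 1.02 for Pgk1 and 0.91 for Eno1). Of 20 genes of the hypoxia response, 14 rose and 3 fell (median 0.49). Bnip3, which acts in mitophagy, was at 37.3, 33.4 and 32.99 CPM at 36 h, against 5.81, 7.796 and 6.81 CPM at 18 h (log2 fold change 2.34 ± 0.081, adjusted p = 8.52e-29). Ddit4, an inhibitor of mTORC1, was at 90.5, 93.8 and 93.9 CPM at 36 h, against 29.9, 33.6 and 33.8 CPM at 18 h (log2 fold change 1.51 ± 0.053, adjusted p = 9.77e-29). Ak4, a mitochondrial adenylate kinase, was at 44.7, 41.8 and 39.9 CPM at 36 h, against 13.1, 15.3 and 14.4 CPM at 18 h (log2 fold change 1.56 ± 0.064, adjusted p = 7.16e-26). In all 3 the times did not overlap.

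Lipid genes split by step. The fatty acid list had 8 of 15 higher and 0 lower (1 lower without replicate 2 at 36 h), and the steepest were desaturases, which put double bonds into fatty acids. Scd2 was at 1051, 1097 and 1087 CPM at 36 h, against 207, 214 and 209 CPM at 18 h, the smallest adjusted p of any gene named here (log2 fold change 2.36 ± 0.038, adjusted p = 3.22e-42). Scd1 was at 27.4, 27.2 and 27.5 CPM at 36 h, against 3.52, 3.66 and 2.47 CPM at 18 h. Fads2 was at 4.49, 3.24 and 4.9002 CPM at 36 h, against 0.8, 1.13 and 1.72 CPM at 18 h. Both rose as well (log2 fold changes 3.08 and 1.8), and no 18 h library reached a 36 h one. Srebf1, which encodes the regulator SREBP-1, was at 119.6, 129 and 127 CPM at 36 h, against 104, 102 and 106 CPM at 18 h (log2 fold change 0.27 ± 0.05, adjusted p = 2.15e-05); it overlaps Rai1 on the opposite strand, with which unstranded reads can be shared. Cholesterol genes stayed near 0, with 9 of 24 higher, 3 lower and a median of 0.01. Oxidative phosphorylation also stayed near 0 (12 of 39 higher, 4 lower, 23 not called, median 0.04; 2 lower without replicate 3 at 18 h or at 36 h), with a small rise in Uqcrfs1 of complex III (log2 fold change 0.24 ± 0.041, adjusted p = 3.08e-06) and a small fall in Ndufs7 of complex I (log2 fold change -0.30 ± 0.057, adjusted p = 1.79e-05).

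MYC and the ribosome-making genes went down. Of 33 tested, 27 fell, 1 rose and 5 were not called, with a median log2 fold change of -0.24. Myc, which encodes a transcription factor, was at 433, 452 and 445 CPM at 36 h, against 831, 777 and 769 CPM at 18 h, lower in every 36 h library (log2 fold change -0.84 ± 0.034, adjusted p = 3.13e-26). Polr1b, a subunit of RNA polymerase I, was at 179, 186 and 193 CPM at 36 h, against 260.0, 261 and 258 CPM at 18 h. Rrp12, a ribosome assembly factor, was at 128, 137 and 135 CPM at 36 h, against 186, 187 and 183 CPM at 18 h (log2 fold changes -0.48 and -0.48). The 1 member that rose was Odc1, ornithine decarboxylase of polyamine synthesis, at 1502, 1465 and 1471 CPM at 36 h, against 882, 897 and 879 CPM at 18 h (log2 fold change 0.74 ± 0.036, adjusted p = 4.13e-23). Chaperones had 3 of 19 higher and 6 lower, among them Hspa8 (log2 fold change -0.25 ± 0.033, adjusted p = 6.91e-09) and the chaperonin subunit gene Cct5 (log2 fold change -0.28 ± 0.031, adjusted p = 9.6e-11). Genes of ER stress and the amino acid response had 13 of 29 higher and 5 lower (median 0.03). Hsp90b1 and Manf, both of the ER lumen, rose (log2 fold changes 0.35 and 0.35), and Manf shares exon bases with Rbm15b and Vprbp. Of 17 amino acid and iron transporters, 3 rose and 5 fell. For the transporters, the chaperones and the ER stress list, the shares over all genes tested were 25.5% higher and 25.6% lower. Tfrc, the transferrin receptor, was at 1276, 1232 and 1255 CPM at 36 h, against 592, 634 and 605 CPM at 18 h (log2 fold change 1.04 ± 0.062, adjusted p = 2.15e-13). Slc1a5, a glutamine transporter, was at 306, 332 and 336 CPM at 36 h, against 433, 429.7 and 419 CPM at 18 h (log2 fold change -0.40 ± 0.037, adjusted p = 4.89e-13).

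**Figure D2:**
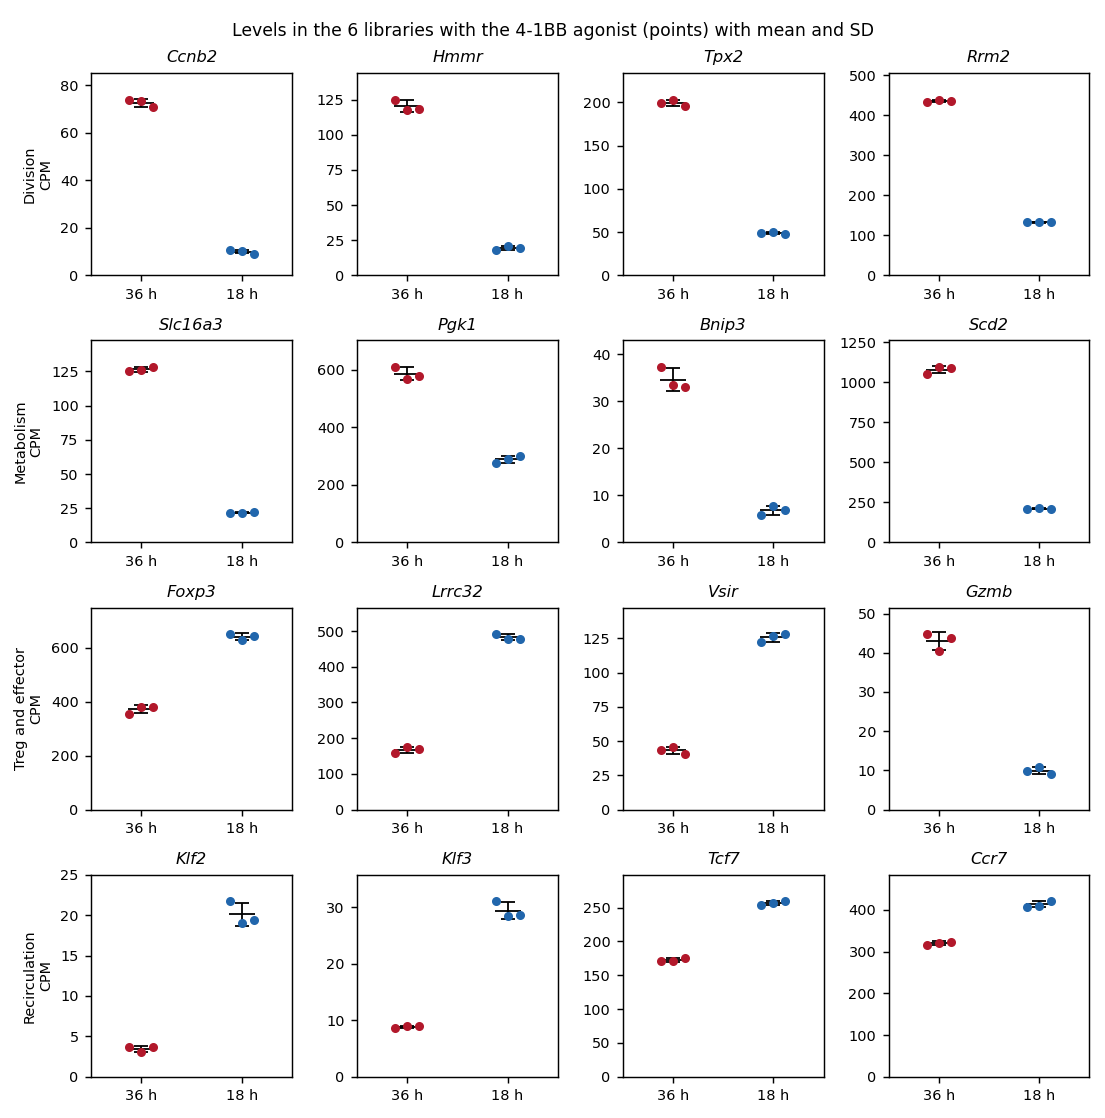
CPM of 16 genes in the 3 libraries at 36 h (red) and the 3 at 18 h (blue) with the 4-1BB agonist, with mean and SD as black bars and each axis starting at 0. Replicates sit close together and the times do not overlap in any panel; division and metabolism genes are higher at 36 h, and Foxp3, Lrrc32, Vsir and the recirculation genes lower.

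Treg genes fell more often than they rose. Of 27 genes of the Treg core signature, 16 fell and 8 rose, with a median log2 fold change of -0.29. Gzmb, a member of this list with 1 of its 4 smallest p, rose (log2 fold change 2.11) and is given with the cytotoxic genes below. Foxp3, the transcription factor that defines the lineage (ENSMUSG00000039521, chrX:7573644-7595245 on the plus strand), was lower in every 36 h library, at the levels given above (log2 fold change -0.78 ± 0.036, adjusted p = 4.42e-24). Its exons overlap 3 other expressed genes, each averaging 12.5 CPM or less at 36 h. Lrrc32, which encodes GARP, the surface anchor of latent TGF-beta, was at 158, 175 and 169.5 CPM at 36 h, against 492, 479 and 478 CPM at 18 h (log2 fold change -1.53 ± 0.04, adjusted p = 2.06e-33). Vsir encodes the inhibitory receptor VISTA and is counted with the inhibitory receptors below, outside the core list. Its levels were 43.4, 45.98 and 40.7 CPM at 36 h, against 122, 127 and 128 CPM at 18 h (log2 fold change -1.54 ± 0.048, adjusted p = 1.71e-30). Ecm1 was at 34.9, 37.8 and 36.9 CPM at 36 h, against 87.1, 82.3 and 87.5 CPM at 18 h (log2 fold change -1.23 ± 0.053, adjusted p = 4.21e-25). No 36 h library reached an 18 h one in these 3 genes. Il2ra, the high-affinity chain of the IL-2 receptor, was at 2644, 2673 and 2626 CPM at 36 h, against 3238, 3232 and 3341 CPM at 18 h (log2 fold change -0.30 ± 0.034, adjusted p = 9.45e-11). Ikzf2, which encodes Helios, was at 594, 624 and 659 CPM at 36 h, against 911, 832 and 883 CPM at 18 h (log2 fold change -0.48 ± 0.072, adjusted p = 4.98e-06). Nrp1, a surface marker of thymic Tregs in mice, was at 85.6, 86.7 and 86.9 CPM at 36 h, against 153, 153 and 151 CPM at 18 h (log2 fold change -0.82 ± 0.039, adjusted p = 1.67e-23). Ctla4, which strips costimulatory ligands from other cells, rose instead and was at 507, 482 and 488 CPM at 36 h, against 361, 353 and 345 CPM at 18 h (log2 fold change 0.48 ± 0.041, adjusted p = 1.45e-13). Tnfrsf18, which encodes GITR, did not pass the test, at 305, 298 and 300.2 CPM at 36 h, against 294, 311 and 306 CPM at 18 h (log2 fold change -0.01 ± 0.037, adjusted p = 0.813), nor did Cd4, at 334, 335 and 338 CPM at 36 h, against 333, 336 and 345 CPM at 18 h (log2 fold change -0.01 ± 0.03, adjusted p = 0.794). Cd3e was at 189, 190.1 and 191 CPM at 36 h, against 233, 211 and 229 CPM at 18 h (log2 fold change -0.24 ± 0.043, adjusted p = 5.76e-06).

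Effector Treg genes fell more often than they rose, with 8 of 29 higher, 16 lower and a median log2 fold change of -0.16. The members named here were taken by smallest p, and most of them rose, unlike the list. The largest rise among the named members was in Lgals1, which encodes galectin-1, at 183, 177 and 180.2 CPM at 36 h, against 57.1, 54.4 and 55.4 CPM at 18 h (log2 fold change 1.7 ± 0.043, adjusted p = 6.28e-34). Tbx21, which encodes T-bet, was at 172, 172 and 171 CPM at 36 h, against 80.7, 80.3 and 83.9 CPM at 18 h (log2 fold change 1.07 ± 0.038, adjusted p = 1.49e-28). Cd44, an adhesion receptor of activated T cells, was at 418, 426 and 416 CPM at 36 h, against 275, 272 and 273 CPM at 18 h (log2 fold change 0.62 ± 0.039, adjusted p = 7.56e-19). Tnfrsf8, which encodes CD30, was at 103, 106 and 100.4 CPM at 36 h, against 169.9, 177 and 174 CPM at 18 h (log2 fold change -0.75 ± 0.038, adjusted p = 1.48e-22). In all 4 genes the times were fully apart, the first 3 higher and Tnfrsf8 lower at 36 h. Inhibitory receptors and ligands had 6 of 18 higher and 7 lower, against 25.5% higher and 25.6% lower over all genes tested. Lag3 was at 10.2, 11.1 and 11.7 CPM at 36 h, against 28.5, 28.98 and 31.6 CPM at 18 h (log2 fold change -1.43 ± 0.079, adjusted p = 5.9e-21). Tigit was at 28.4, 27.96 and 28.9 CPM at 36 h, against 44.8, 46.4 and 47.98 CPM at 18 h (log2 fold change -0.71 ± 0.053, adjusted p = 4.17e-16). Cd200 was at 172, 159 and 163 CPM at 36 h, against 261, 261 and 257 CPM at 18 h (log2 fold change -0.66 ± 0.039, adjusted p = 1.81e-19), lower at 36 h in each library. Integrins and adhesion genes had 5 of 20 higher and 10 lower, and Itgae, the integrin chain CD103, was at 25.8, 26.9 and 24.03 CPM at 36 h, against 41.9, 37.7 and 41.1 CPM at 18 h (log2 fold change -0.65 ± 0.061, adjusted p = 6.88e-13).

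Genes of resting and recirculating T cells included the steepest named fall. Of 25 tested, 15 fell and 8 rose, with a median log2 fold change of -0.32. Klf2, the transcription factor that keeps lymph node homing genes on (ENSMUSG00000055148, chr8:72319033-72321656 on the plus strand), was at 3.68, 3.05 and 3.64 CPM at 36 h, against 21.8, 19.1 and 19.5 CPM at 18 h, the largest fall among genes named by size (log2 fold change -2.53 ± 0.14, adjusted p = 1.51e-16). Klf3, a relative of Klf2, was at 8.63, 8.94 and 9.01 CPM at 36 h, against 31.1, 28.5 and 28.7 CPM at 18 h (log2 fold change -1.73 ± 0.082, adjusted p = 1.96e-23). Tcf7, which encodes TCF-1, was at 171, 171 and 176 CPM at 36 h, against 254, 256 and 259.6 CPM at 18 h (log2 fold change -0.57 ± 0.034, adjusted p = 1.19e-19). Ccr7, the chemokine receptor for lymph node entry, was at 315, 321 and 324 CPM at 36 h, against 408, 410.0 and 421 CPM at 18 h (log2 fold change -0.37 ± 0.033, adjusted p = 2.47e-13). Every 36 h library was below every 18 h library in these 4 genes. The 8 GIMAP genes, a clustered family of lymphocyte GTPases whose members can share reads, had 4 lower, 1 higher and 3 not called. Gimap3 was at 169, 169 and 163 CPM at 36 h, against 285, 293 and 298 CPM at 18 h. Gimap6 was at 109, 107 and 103 CPM at 36 h, against 128, 127 and 127 CPM at 18 h. Both were lower at 36 h (log2 fold changes -0.81 and -0.26). Gimap1, which overlaps an antisense gene, fell too (log2 fold change -0.23). Gimap4 was the 1 that rose, at 231, 228 and 226 CPM at 36 h, against 163, 159.9 and 149 CPM at 18 h (log2 fold change 0.54 ± 0.039, adjusted p = 2.47e-16).

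The NF-kB pathway, downstream of 4-1BB, was lower at 36 h in most of its genes. Of 30 pathway and feedback genes, 22 fell and 4 rose, with a median log2 fold change of -0.25. The list also fell without the agonist: in control 19 fell and 4 rose (median -0.16). With the TNFR2 agonist 22 fell and 4 rose (median -0.25), and with the DR3 agonist 21 fell and 4 rose (median -0.20). Nfkbia, which encodes the inhibitor IkB-alpha and is itself an NF-kB target, was at 276, 292 and 280.2 CPM at 36 h, against 476, 462 and 467 CPM at 18 h (log2 fold change -0.73 ± 0.035, adjusted p = 5.25e-23). Rel, which encodes the subunit c-Rel, was at 309, 326 and 330.2 CPM at 36 h, against 451, 442 and 436 CPM at 18 h (log2 fold change -0.46 ± 0.043, adjusted p = 3.33e-12). Traf6, an adaptor of the TRAF family, was at 257, 257 and 258 CPM at 36 h, against 331, 333 and 337 CPM at 18 h (log2 fold change -0.38 ± 0.034, adjusted p = 1.78e-13). Against that direction, Tnip3, which encodes an A20-binding inhibitor, was at 12.8, 10.6 and 10.7 CPM at 36 h, against 5.17, 5.07 and 4.34 CPM at 18 h (log2 fold change 1.22 ± 0.11, adjusted p = 8.97e-14). Each of the 4 had its times fully apart. A loose form of the NF-kB site, made of 3 G, any 5 bases and 2 C, occurred in 30 of 38 promoters of the list (78.9%), against 50.8% of all promoters. These 38 promoters belong to 26 genes, and 21 of the genes had a match. Base composition was not matched between the list and all promoters, and a match says nothing of the factors bound there.

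The gene of the targeted receptor itself moved little. Tnfrsf9 (ENSMUSG00000028965, chr4:150914562-150946102 on the plus strand) was at 499, 483 and 493 CPM at 36 h, against 418, 410.1 and 419 CPM at 18 h, higher in every 36 h library by a small margin (log2 fold change 0.24 ± 0.036, adjusted p = 1.53e-07). Its ligand gene Tnfsf9 was at 6.31, 5.39 and 5.97 CPM at 36 h, against 7.14, 6.67 and 6.97 CPM at 18 h and did not pass the test (log2 fold change -0.23 ± 0.12, adjusted p = 0.101). Over the TNF receptor superfamily, 4 of 21 rose and 11 fell (median -0.32). Tnfrsf1b, which encodes TNFR2, was at 230.3, 239 and 238 CPM at 36 h, against 332, 336 and 342 CPM at 18 h (log2 fold change -0.51 ± 0.035, adjusted p = 1.99e-17). Tnfrsf25, which encodes DR3, was at 19.1, 16.5 and 18.2 CPM at 36 h, against 38.2, 35.9 and 36.02 CPM at 18 h (log2 fold change -1.03 ± 0.071, adjusted p = 2e-17). Tnfrsf4, which encodes OX40, was at 484, 486 and 495 CPM at 36 h, against 609, 595 and 588 CPM at 18 h (log2 fold change -0.29 ± 0.038, adjusted p = 6.14e-09). The 3 receptors fell without overlap between the times. Cd27 was at 35.03, 36.04 and 37.4 CPM at 36 h, against 88.1, 88.8 and 87.6 CPM at 18 h (log2 fold change -1.29 ± 0.048, adjusted p = 1.24e-27), and Tnfrsf13b, which encodes TACI, rose and was at 115, 112 and 116 CPM at 36 h, against 55.7, 56.8 and 56.3 CPM at 18 h (log2 fold change 1.02 ± 0.042, adjusted p = 6.13e-26).

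Of 14 TNF superfamily ligands tested, 6 rose and 5 fell, against 25.5% higher and 25.6% lower over all genes tested. Lta, lymphotoxin-alpha, was at 503, 480.1 and 474 CPM at 36 h, against 347, 342 and 339.6 CPM at 18 h (log2 fold change 0.50 ± 0.034, adjusted p = 1.15e-17). Tnfsf11, which encodes RANKL, was at 121, 118 and 119 CPM at 36 h, against 73.95, 84.2 and 81.6 CPM at 18 h (log2 fold change 0.58 ± 0.042, adjusted p = 9.37e-17). Tnfsf4, which encodes OX40L, was at 10.9, 13.4 and 11.2 CPM at 36 h, against 5.33, 5.07 and 4.395 CPM at 18 h (log2 fold change 1.26 ± 0.12, adjusted p = 3.7e-13). Tnfsf8, the CD30 ligand gene, fell and was at 255, 255 and 247 CPM at 36 h, against 363, 377 and 361 CPM at 18 h (log2 fold change -0.54 ± 0.041, adjusted p = 6.37e-16).

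The IL-2 receptor, JAK and STAT5 axis had 14 of 24 genes lower and 6 higher (median -0.20). Stat5a, a transcription factor that the IL-2 receptor activates, was at 359, 386 and 380.2 CPM at 36 h, against 595, 601 and 619.5 CPM at 18 h (log2 fold change -0.69 ± 0.034, adjusted p = 4.99e-23); it overlaps Stat3 on the opposite strand. The kinase genes Pim1 and Pim2, targets of STAT5, were also lower. Pim1 was at 331, 351 and 349 CPM at 36 h, against 631, 607 and 612 CPM at 18 h (log2 fold change -0.84 ± 0.032, adjusted p = 2.04e-27). Pim2 was at 71.8, 69.1 and 71.7 CPM at 36 h, against 125, 122 and 127 CPM at 18 h (log2 fold change -0.82 ± 0.042, adjusted p = 3.51e-22). Among 29 AP-1, NR4A and EGR factors and other genes of the early response to antigen receptor signals, 14 rose and 6 fell (median 0.22). Atf3 was at 48.4, 46.8 and 48.1 CPM at 36 h, against 19.1, 22.2 and 24.3 CPM at 18 h (log2 fold change 1.12 ± 0.06, adjusted p = 1.96e-21). The orphan nuclear receptor gene Nr4a3 was at 697, 740.0 and 748 CPM at 36 h, against 483, 479 and 452 CPM at 18 h (log2 fold change 0.63 ± 0.038, adjusted p = 3.01e-19). Irf8 was at 700.4, 726 and 729 CPM at 36 h, against 432, 457 and 458 CPM at 18 h (log2 fold change 0.68 ± 0.036, adjusted p = 9.63e-22). Spry1, a feedback inhibitor of receptor tyrosine kinase signals, was at 22.1, 22.7 and 19.6 CPM at 36 h, against 57.7, 56.97 and 56.4 CPM at 18 h (log2 fold change -1.41 ± 0.058, adjusted p = 5.81e-26), lower in each 36 h library while the other 3 were higher. T cell receptor and CD28 signalling genes had 10 of 26 higher and 7 lower, and the median was 0.05. Over all genes tested, 25.5% were higher and 25.6% lower. Cd28 fell, at 105, 107 and 103 CPM at 36 h, against 139, 146 and 147 CPM at 18 h (log2 fold change -0.46 ± 0.058, adjusted p = 7.72e-08), as did Cd3g (log2 fold change -0.62 ± 0.045, adjusted p = 2.38e-16). The adaptor gene Lcp2 rose (log2 fold change 0.36 ± 0.032, adjusted p = 1.5e-13).

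Of 21 cytokine genes, 13 rose and 4 fell, with a median log2 fold change of 0.63, and several were at low levels. Lif, a cytokine of the IL-6 family, was at 180.3, 186 and 183 CPM at 36 h, against 89.4, 94.6 and 94.5 CPM at 18 h (log2 fold change 0.98 ± 0.036, adjusted p = 4.87e-28). Il1a, which encodes IL-1-alpha, was at 14.3, 15.8 and 13.7 CPM at 36 h, against 3.95, 3.85 and 2.25 CPM at 18 h (log2 fold change 2.11 ± 0.17, adjusted p = 4.98e-12). Csf2, which encodes GM-CSF, was at 13.02, 12.2 and 13.7 CPM at 36 h, against 5.92, 6.81 and 6.004 CPM at 18 h (log2 fold change 1.05 ± 0.11, adjusted p = 2.34e-11). Il16 fell and was at 76.4, 78.9 and 73.9 CPM at 36 h, against 113, 113 and 115 CPM at 18 h (log2 fold change -0.57 ± 0.042, adjusted p = 1.76e-16). Of 25 chemokines and receptors, 6 rose and 9 fell, against 25.5% higher and 25.6% lower over all genes tested. Ccl3 was at 58.6, 50.9 and 48.96 CPM at 36 h, against 11.04, 10.9 and 11.4 CPM at 18 h (log2 fold change 2.25 ± 0.087, adjusted p = 1e-22). Ccl4 was at 40.3, 35.6 and 39.6 CPM at 36 h, against 14.4, 16.9 and 13.8 CPM at 18 h (log2 fold change 1.35 ± 0.091, adjusted p = 2.9e-14). In both chemokine genes no 18 h library reached a 36 h one. Cxcl10, an interferon-inducible ligand of CXCR3, was at 4.69, 5.34 and 5.04 CPM at 36 h, against 18.8, 15.5 and 15.7 CPM at 18 h (log2 fold change -1.73 ± 0.11, adjusted p = 5.47e-18).

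Of 9 cytotoxic genes tested, 4 rose and 3 fell, against 25.5% higher and 25.6% lower over all genes tested. Gzmb, which encodes granzyme B, was at 44.8, 40.5 and 43.7 CPM at 36 h, against 9.97, 10.8 and 9.01 CPM at 18 h (log2 fold change 2.11 ± 0.079, adjusted p = 1.98e-27). Fasl was at 5.05, 4.49 and 3.55 CPM at 36 h, against 1.76, 1.503 and 2.25 CPM at 18 h (log2 fold change 1.25 ± 0.17, adjusted p = 1.49e-08). Serpinb9, which encodes an inhibitor of granzyme B, was at 154, 148 and 153 CPM at 36 h, against 119, 125 and 121 CPM at 18 h (log2 fold change 0.32 ± 0.04, adjusted p = 2.74e-09). Lamp1, which encodes a lysosomal membrane protein, fell without overlap and was at 148, 149.8 and 148 CPM at 36 h, against 189, 185 and 173 CPM at 18 h (log2 fold change -0.29 ± 0.036, adjusted p = 2.06e-09). Interferon-stimulated genes had 11 of 34 higher and 16 lower (median -0.26). Ifit1, at low level, was at 1.06, 1.697 and 1.49 CPM at 36 h, against 5.92, 4.98 and 4.13 CPM at 18 h (log2 fold change -1.81 ± 0.18, adjusted p = 2.91e-12). Gbp3 was at 48.5, 50.8 and 47.1 CPM at 36 h, against 78.9, 76.5 and 84.96 CPM at 18 h (log2 fold change -0.71 ± 0.05, adjusted p = 3.17e-17). The immunity-related GTPase genes Irgm1 and Igtp rose instead. Irgm1 was at 207, 205 and 199 CPM at 36 h, against 134, 135 and 135 CPM at 18 h (log2 fold change 0.60 ± 0.038, adjusted p = 1.09e-18). Igtp, which shares exon bases with Irgm2, was at 487, 475 and 466 CPM at 36 h, against 336, 332 and 345 CPM at 18 h (log2 fold change 0.50 ± 0.033, adjusted p = 1.01e-17).

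Death genes moved both ways, as did all genes tested, with 25.5% higher and 25.6% lower. Of 20 pro-apoptotic genes, 9 rose and 6 fell, and of 14 anti-apoptotic genes, 4 rose and 7 fell. Apaf1, the scaffold of the apoptosome, was at 97.4, 101 and 99.5 CPM at 36 h, against 61.3, 62.7 and 64.5 CPM at 18 h (log2 fold change 0.66 ± 0.041, adjusted p = 4.67e-19). Bak1 was at 113, 115 and 113 CPM at 36 h, against 86.6, 80.7 and 89.7 CPM at 18 h (log2 fold change 0.41 ± 0.041, adjusted p = 4.35e-12). Bcl2l11, which encodes BIM, fell and was at 5.75, 6.24 and 6.95 CPM at 36 h, against 15.4, 13.6 and 13.7 CPM at 18 h (log2 fold change -1.17 ± 0.099, adjusted p = 3.86e-14). Bcl2a1d, which has near-identical copies that can share reads, rose (log2 fold change 0.72 ± 0.063, adjusted p = 7.73e-14). Of 19 antigen presentation genes, 7 rose and 8 fell. H2-K1, a class I heavy chain gene, was at 1403, 1445 and 1436 CPM at 36 h, against 2080.4, 2072 and 2116 CPM at 18 h (log2 fold change -0.55 ± 0.035, adjusted p = 1.42e-18). Cd86 and Cd83, markers of antigen-presenting cells, fell as well (log2 fold changes -1.12 and -0.66). Cd74, which encodes the invariant chain of class II molecules, rose without overlap and was at 69.7, 75.4 and 74.7 CPM at 36 h, against 47.3, 45.6 and 45.4 CPM at 18 h (log2 fold change 0.67 ± 0.05, adjusted p = 3.56e-16).

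The largest fold changes among the genes named by size were in genes at low level at one of the times. Dclk1, which encodes a microtubule-binding kinase (ENSMUSG00000027797, chr3:55242364-55539068 on the plus strand), was at 15.8, 14.6 and 13.8 CPM at 36 h, against 0.693, 0.611 and 0.911 CPM at 18 h (log2 fold change 4.32 ± 0.20, adjusted p = 6.49e-22). Slc4a11, an SLC4 family membrane transporter gene (ENSMUSG00000074796, chr2:130684113-130697519 on the minus strand), was at 33.97, 35.5 and 31.9 CPM at 36 h, against 2.13, 2.16 and 1.72 CPM at 18 h (log2 fold change 4.07 ± 0.11, adjusted p = 1.47e-33). The lack of overlap between the times in both genes was required by the rule that named them. Il12rb2, a chain of the IL-12 receptor that overlaps Serbp1 on the opposite strand, was at 26.9, 24.9 and 24.3 CPM at 36 h, against 3.95, 4.65 and 3.91 CPM at 18 h (log2 fold change 2.6 ± 0.10, adjusted p = 2.98e-26). Tgm2, transglutaminase 2, was at 5.65, 6.19 and 5.83 CPM at 36 h, against 0.906, 0.845 and 0.375 CPM at 18 h (log2 fold change 3.03 ± 0.22, adjusted p = 1.37e-16); it overlaps Rprd1b, which averaged 90.1 CPM at 36 h. The other rises of the 15 were Cdkn3, a cyclin-dependent kinase phosphatase gene (log2 fold change 2.78), Unc13a, which overlaps Colgalt1 (2.92), Galnt3 (2.78) and Cyp11a1 (2.46), besides genes given above. Among the 15 largest falls, Trib2, a pseudokinase gene, was at 9.89, 8.64 and 10.97 CPM at 36 h, against 34.7, 37.3 and 34.6 CPM at 18 h (log2 fold change -1.85 ± 0.064, adjusted p = 5.45e-29). Tnnt2 was at 7.22, 8.59 and 7.98 CPM at 36 h, against 28.6, 27.2 and 28.7 CPM at 18 h (log2 fold change -1.83 ± 0.12, adjusted p = 2.15e-15). Fam160a1 was at 7.92, 10.4 and 9.61 CPM at 36 h, against 38.9, 38.6 and 37.95 CPM at 18 h (log2 fold change -2.05 ± 0.078, adjusted p = 3.3e-27). The same rule required that the times of these 3 genes did not overlap. The remaining falls were in Tcp11l2, Slc7a10, Wfikkn2, Hcn3, Pdk2 and Dscam, with log2 fold changes between -2.53 and -1.59 and means of 3.17 CPM or less at 36 h.

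Most of the time change was also present without the agonist. Of the 7313 genes called with the agonist and 7468 called in control (52.2%), 5784 were called in both, which is 79.1% and 77.5% of the lists, and 5719 of them moved the same way. The test of the difference between the time changes called 626 genes (4.37%), 335 with a more positive change under the agonist (2.34%) and 291 with a more negative one (2.03%). Only 34 of these differed by 2-fold or more (0.238%). By estimate, 247 changed in the same direction in both arms and more with the agonist, 170 in the same direction and more in control, and 209 in opposite directions. In 65 genes both changes were called and opposite, 37 of them higher at 36 h with the agonist. In 449 of the 626 genes (71.7%) the gap between agonist and control was wider at 18 h than at 36 h, against 54.7% of all genes tested. Transcripts of the ribosomal RNA locus, which track ribosomal RNA carried into a library, were at 2089 to 2902 CPM at 36 h and 1656 to 4551 CPM at 18 h with the agonist. In control they were at 832.2 to 3368 CPM at 36 h, against 8254 to 26260 CPM at 18 h. Without the 6 libraries of the series over 10000 CPM of these transcripts, which leaves replicate 3 as the 1 control library at 18 h, 240 genes were called, 236 of them among the 626.

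Genes that fell under the agonist but not in control included Ly75 and Cacnb3. Ly75, which encodes the endocytic receptor DEC-205 (ENSMUSG00000026980, chr2:60292103-60383303 on the minus strand), was at 216, 227 and 225 CPM at 36 h, against 317, 315 and 326 CPM at 18 h with the agonist. Its control libraries were at 158, 154 and 149 CPM at 36 h, against 122, 120.3 and 121 CPM at 18 h. The agonist libraries fell with time while the control libraries rose, and the agonist libraries were the higher at both times (difference of log2 changes -0.86 ± 0.051, adjusted p = 3.25e-17). Cacnb3, a calcium channel beta subunit gene (ENSMUSG00000003352, chr15:98630840-98644529 on the plus strand), was at 20.7, 24.3 and 21.9 CPM at 36 h, against 66.5, 61.1 and 64.5 CPM at 18 h with the agonist. In control it was at 5.15, 4.48 and 4.395 CPM at 36 h, against 4.59, 3.74 and 4.204 CPM at 18 h. Its control libraries lay at 5.15 CPM or less at both times, and every agonist library was above all of them (difference -1.68 ± 0.13, adjusted p = 6.13e-13). Thy1, a surface glycoprotein gene of T cells, fell under the agonist to 308, 307 and 302 CPM, against 363, 342 and 363 CPM at 18 h. In control it rose to 206, 201 and 214 CPM, against 154, 157 and 169 CPM at 18 h (difference -0.59 ± 0.053, adjusted p = 8.82e-12).

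Other genes fell in both arms and more steeply with the agonist. Slamf6, a SLAM family receptor gene, was at 57.7, 56.9 and 56.4 CPM at 36 h, against 164, 155 and 158 CPM at 18 h with the agonist. Its control libraries were at 49.7, 46.9 and 50.9 CPM at 36 h, against 83.2, 75.3 and 77.2 CPM at 18 h. The agonist libraries were above the control ones at both times, by less at 36 h (difference -0.80 ± 0.064, adjusted p = 5.49e-13). Slc35b4, a nucleotide sugar transporter gene, was at 119, 126 and 127 CPM at 36 h, against 213, 209 and 213 CPM at 18 h with the agonist. In control it was at 87.3, 85.2 and 86.2 CPM at 36 h, against 97.2, 98.5 and 98.1 CPM at 18 h (difference -0.59 ± 0.05, adjusted p = 3.52e-12). Stat5a was at 338, 311 and 327 CPM at 36 h, against 379, 376 and 369 CPM at 18 h in control, a smaller fall than with the agonist (difference -0.49 ± 0.048, adjusted p = 1.71e-10), and Pim2 was at 88.03, 79.4 and 87.3 CPM at 36 h, against 97.5, 101 and 97.8 CPM at 18 h in control (difference -0.60 ± 0.059, adjusted p = 2.1e-10). Tnfrsf8 was at 93.3, 86.6 and 97.8 CPM at 36 h, against 113, 109.8 and 110.0 CPM at 18 h in control (difference -0.49 ± 0.054, adjusted p = 3.73e-09). For these 3 genes the 18 h libraries with the agonist were all above the 18 h control libraries. Tcf7 (-0.34, adjusted p = 1.64e-06), Pim1 (-0.34, adjusted p = 3.14e-07), Lag3 (-0.55, adjusted p = 0.000769), Itgae (-0.46, adjusted p = 0.000224) and Cd86 (-0.52, adjusted p = 0.00039) differed in the same direction.

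A further set rose with the agonist and did not rise, or rose less, in control. Tnfrsf9, the 4-1BB gene, was at 439, 429 and 433 CPM at 36 h, against 561, 576 and 558 CPM at 18 h in control. Its agonist libraries were below control at 18 h and above control at 36 h (difference 0.62 ± 0.051, adjusted p = 8.41e-13). Nr4a2, an orphan nuclear receptor gene, was at 41.99, 47.2 and 44.3 CPM at 36 h, against 23.5, 23.9 and 21.1 CPM at 18 h with the agonist. Its control libraries were at 34.04, 34.3 and 32.3 CPM at 36 h, against 36.6, 33.9 and 34.9 CPM at 18 h (difference 1.03 ± 0.086, adjusted p = 1.99e-12). Acap1, an Arf GTPase activating protein gene, was at 111, 118 and 114 CPM at 36 h, against 76.8, 77.9 and 78.9 CPM at 18 h with the agonist. In control it was at 135, 132 and 143 CPM at 36 h, against 138, 143 and 142 CPM at 18 h (difference 0.60 ± 0.053, adjusted p = 8.82e-12). Gimap4 was at 270.3, 282 and 266 CPM at 36 h, against 296, 291 and 285 CPM at 18 h in control (difference 0.63 ± 0.055, adjusted p = 6.05e-12). In Acap1 and Gimap4 every agonist library was below every control library of its time, and the gap was smaller at 36 h. Gzmb was at 41.3, 42.9 and 37.1 CPM at 36 h, against 18.2, 17.8 and 17.1 CPM at 18 h in control (difference 0.92 ± 0.11, adjusted p = 3.86e-08); the arms overlapped at 36 h and were apart at 18 h. Ctla4 was at 521, 541 and 518 CPM at 36 h, against 521, 509.7 and 509 CPM at 18 h in control, where its time change was not called (log2 fold change 0.04, adjusted p = 0.468; difference 0.44 ± 0.058, adjusted p = 4.2e-07). Lgals1 (0.49, adjusted p = 4.01e-08), Slc16a3 (0.74, adjusted p = 2.66e-07), Atf3 (0.77, adjusted p = 3.59e-09) and Odc1 (0.41, adjusted p = 4.8e-08) differed in the same direction.

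A pair of genes rose less with the agonist than in control. Ncf1, which encodes the p47phox subunit of the phagocyte oxidase, was at 126, 132 and 129.8 CPM at 36 h, against 93.6, 91.7 and 101 CPM at 18 h with the agonist. Its control libraries were at 89.1, 90.1 and 89.4 CPM at 36 h, against 40.3, 37.7 and 37.4 CPM at 18 h. Eomes, a T-box transcription factor gene, was at 23.4, 22.02 and 22.9 CPM at 36 h, against 9.65, 12.8 and 10.7 CPM at 18 h with the agonist. In control it was at 27.8, 26.9 and 29.2 CPM at 36 h, against 5.54, 5.59 and 5.54 CPM at 18 h. Both were higher with the agonist at 18 h, and at 36 h Ncf1 was above control and Eomes below it (differences -0.78 ± 0.058, adjusted p = 9.95e-14 for Ncf1 and -1.29 ± 0.12, adjusted p = 1.38e-10 for Eomes). Ncf1 overlaps Gtf2ird2 on the opposite strand.

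Counted over lists, against backgrounds of 2.34% and 2.03%, the AP-1, NR4A and EGR list had 11 of 29 members with a more positive time change under the agonist and 2 with a more negative one. Glycolysis had 8 of 23 more positive and 0 more negative, T cell receptor and CD28 signalling 7 of 26 and 0, and the GIMAP family 5 of 8 and 0. Resting T cell genes had 4 of 25 more positive and 8 more negative, and the IL-2 and STAT5 axis 3 of 24 and 7. The NF-kB list had 0 of 30 more positive and 4 more negative, among them Nfkbia (-0.23, adjusted p = 0.00222) and Traf6 (-0.24, adjusted p = 0.000708). DNA replication had 0 of 39 and 1, and cholesterol synthesis 0 of 24 and 0. Without the libraries over 10000 CPM of ribosomal locus transcripts, the AP-1 list had 8 more positive and 1 more negative, glycolysis 5 and 0, T cell receptor signalling 3 and 0, the GIMAP family 3 and 0, resting T cell genes 3 and 3, the IL-2 axis 1 and 4, and the NF-kB list 0 and 1. Nfkbia (-0.22, adjusted p = 0.105) and Traf6 (-0.21, adjusted p = 0.0949) no longer passed there, nor did Kif11 (-0.28, adjusted p = 0.132) and Ccna2 (-0.29, adjusted p = 0.14) of the G2 and mitosis list.

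**Figure D3:**
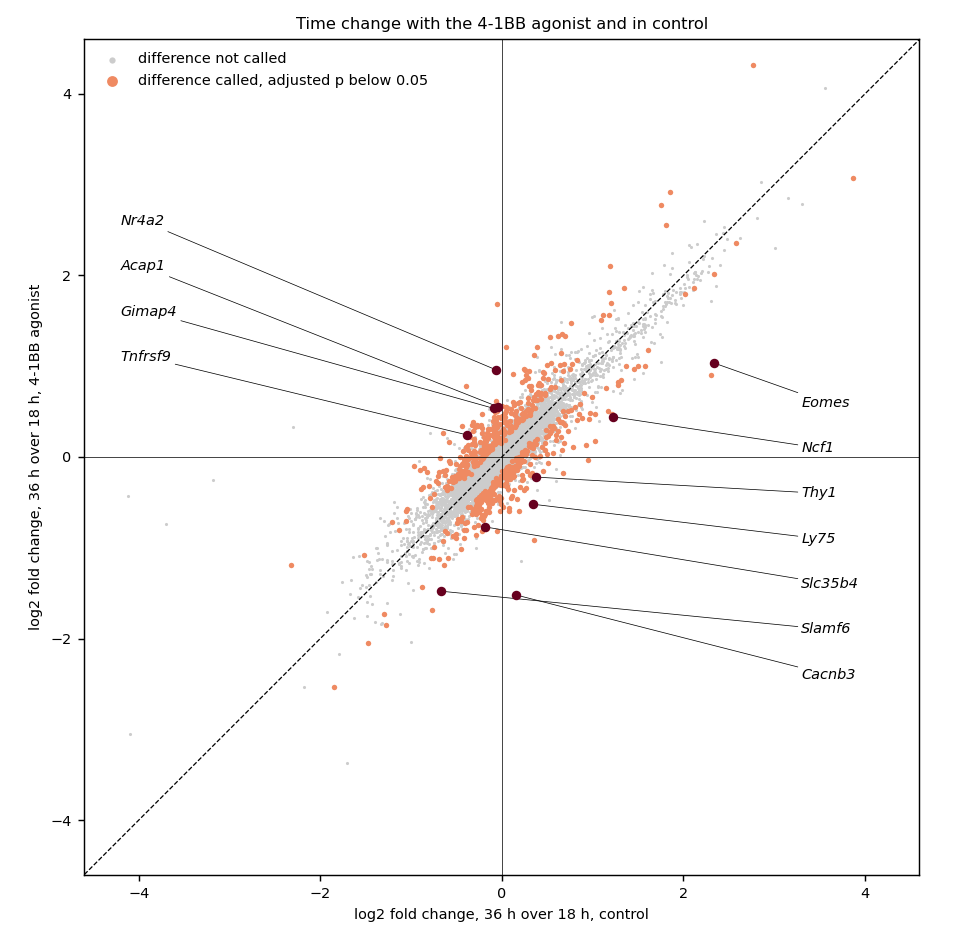
Log2 fold change at 36 h over 18 h with the 4-1BB agonist (vertical) against that in control (horizontal) for 9838 genes at 5 CPM or more in at least 1 of the 4 groups, with the 599 of them whose difference was called in orange and 11 of the 12 with the smallest p named. Most genes lie along the dashed line of equal change; Cacnb3 and Slamf6 lie below it and Nr4a2 above it.

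**Figure D4:**
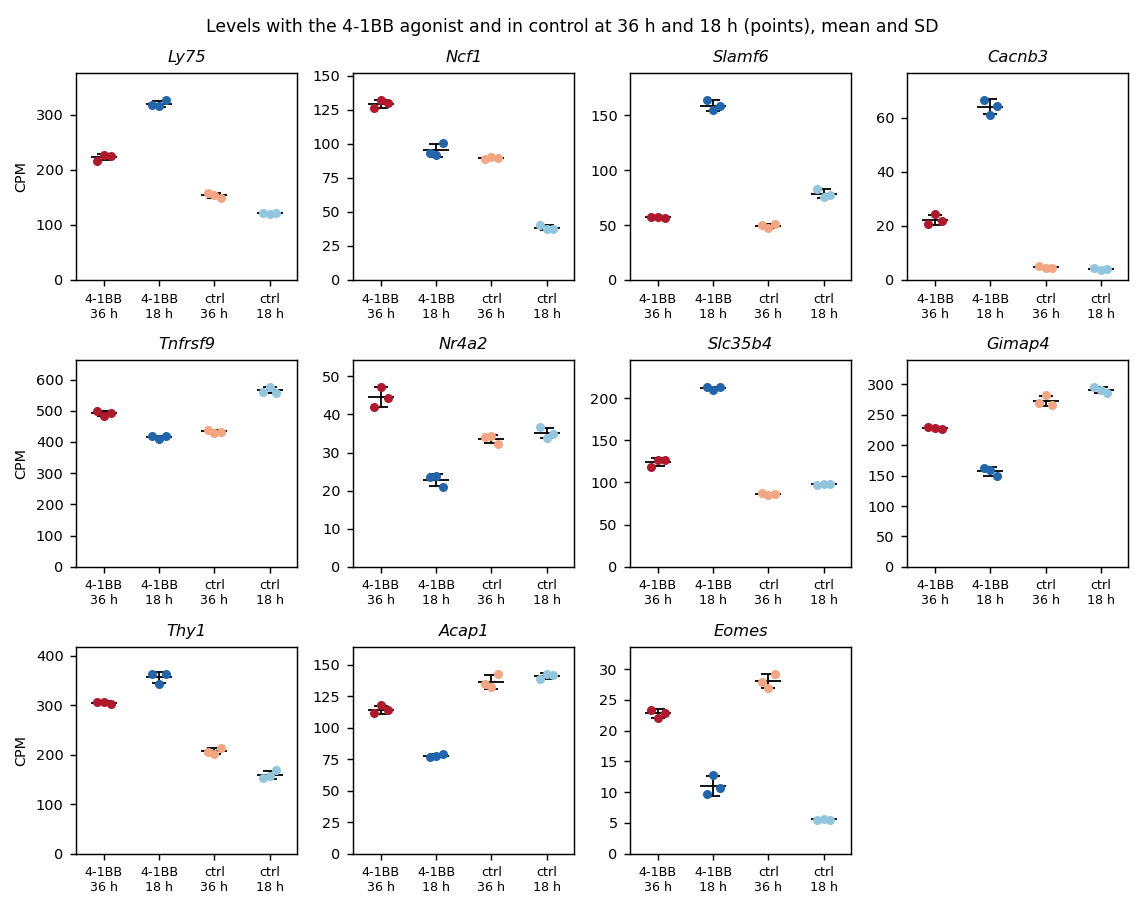
CPM of 11 of the 12 genes with the smallest p for a difference in time change, in the 3 libraries of each group (4-1BB agonist at 36 h and 18 h, control at 36 h and 18 h), with mean and SD as black bars. Cacnb3 is at 5.15 CPM or less in every control library and highest with the agonist at 18 h; Tnfrsf9 moves in opposite directions in the arms.

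Against the other agonists the time changes differed in few genes. The test called 42 genes against the TNFR2 agonist (0.293%), 10 with a more positive change under the 4-1BB agonist (0.0699%) and 32 with a more negative one (0.224%). That count rests on single libraries. It was 20 without replicate 1 of the 4-1BB agonist at 18 h, 23 without replicate 2 of the TNFR2 agonist at 18 h, 103 without replicate 3 of the TNFR2 agonist at 18 h and 23 without replicate 1 of the TNFR2 agonist at 36 h. Against the DR3 agonist 77 genes were called (0.538%), 42 more positive (0.293%) and 35 more negative (0.245%). The count was 41 without replicate 1 of the 4-1BB agonist at 18 h or 48 without replicate 2 of the DR3 agonist at 36 h. At an unadjusted p under 0.05 the numbers were 1257 and 1146 of 14313 genes. Without the libraries over 10000 CPM of ribosomal locus transcripts, 5 and 37 genes were called. These arms share the 4-1BB agonist libraries, so each gene's values are given side by side.

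Slamf6 and Ly75 fell more under the 4-1BB agonist than under either. The log2 fold change of Slamf6 was -1.48 with the 4-1BB agonist, -1.14 with the TNFR2 agonist and -0.96 with the DR3 agonist (differences -0.34 and -0.52; adjusted p = 0.00368 against the TNFR2 agonist and 6.3e-07 against the DR3 agonist). That of Ly75 was -0.52, -0.27 and -0.21 in the same order (differences -0.25 and -0.31). Itgae fell with the 4-1BB agonist (-0.65) and was near 0 with the TNFR2 agonist (0.00) and the DR3 agonist (-0.07). It averaged 25.6 ± 1.43 CPM at 36 h and 40.2 ± 2.25 CPM at 18 h with the 4-1BB agonist (SD, n = 3 each), against 33.04 ± 0.933 and 32.95 ± 0.203 CPM with the TNFR2 agonist and 27.3 ± 1.22 and 28.6 ± 2.81 CPM with the DR3 agonist. The differences were -0.66 ± 0.087, adjusted p = 8.94e-06 against the TNFR2 agonist and -0.58 ± 0.089, adjusted p = 5.67e-05 against the DR3 agonist.

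Tbx21 rose more under the 4-1BB agonist than under either. It averaged 171 ± 0.775 CPM at 36 h and 81.6 ± 1.96 CPM at 18 h with the 4-1BB agonist, against 172 ± 4.38 and 114 ± 4.07 CPM with the TNFR2 agonist and 176 ± 1.52 and 112 ± 5.55 CPM with the DR3 agonist (differences 0.48 ± 0.053, adjusted p = 9.76e-08 and 0.41 ± 0.053, adjusted p = 1.68e-06). Irgm1 did likewise, with log2 fold changes of 0.60 with the 4-1BB agonist, 0.28 with the TNFR2 agonist and 0.32 with the DR3 agonist (differences 0.32 and 0.28). Igtp was called against the TNFR2 agonist, with a difference of 0.24 (adjusted p = 0.00668). Without the libraries over 10000 CPM of ribosomal locus transcripts, Slamf6, Ly75 and Igtp no longer passed against the TNFR2 agonist, and Tbx21, Itgae and Irgm1 did. Against the DR3 agonist the differences were 0.42 (adjusted p = 6.3e-07) for Tnfrsf9, 0.84 (adjusted p = 9.33e-06) for Gzmb, 0.37 (adjusted p = 5.23e-06) for Lif, 0.35 (adjusted p = 0.000117) for Gimap4 and 0.47 (adjusted p = 0.00137) for Atf3. Tnfrsf9 rose with the 4-1BB agonist (0.24) and fell with the DR3 agonist (-0.17). Also positive against the DR3 agonist were Acap1 (0.30, adjusted p = 0.00137), Nr4a2 (0.44, adjusted p = 0.00608) and Il12rb2 (0.83, adjusted p = 0.0033).

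**Figure D5:**
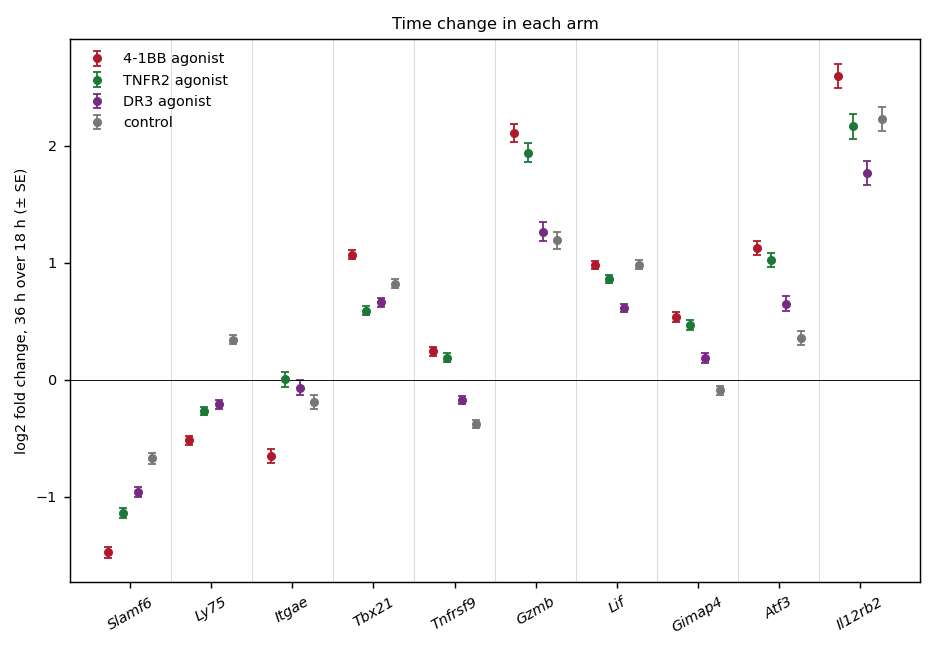
Log2 fold change at 36 h over 18 h with its SE for 10 genes in cultures with the 4-1BB agonist (red), TNFR2 agonist (green) and DR3 agonist (purple) and in control (grey). Slamf6, Ly75 and Itgae are lowest and Tbx21 and Gzmb highest with the 4-1BB agonist by estimate.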

How the data were processed

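RNA was isolated with NucleoSpin RNA XS and libraries made with SMART-Seq v4, which does not mark strand, per the labels' protocols. Reads were handled with Trimmomatic, STAR 2.5.3a and RSEM 1.2.28 on mm10, with FastQC, per the submitters' processing notes. Annotation release and strand mode: not given in the sources used here. Tables deposited by the authors hold RSEM expected counts per gene and TPM, which was not tested. Of 54087 genes listed, 53973 matched 1 gene of GENCODE M21, the source of identifiers and positions. Expected counts were rounded and fitted with edgeR 4.0.16 (R 4.3.3): filterByExpr over 11 groups left 14313 genes, TMM scaling, 1 mean per group over all 32 libraries, robust quasi-likelihood F tests and Benjamini-Hochberg adjustment. The biological coefficient of variation was 4.02%. SEs come from the F statistic. DESeq2 1.42.0 was an alternative, beside other scalings, filters, a replicate block and left-out libraries.

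Genes were named by rule: the 15 largest and 15 smallest called log2 fold changes at 5 CPM or more without overlap, up to 4 members per list by p, receptors and Treg markers, and the 12 smallest p for the difference from control. Members and lists were chosen with earlier results of these data known. Some genes named by the rule are not reported here. Promoters are RefSeq's (GRCm38.p6).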

Additional observations from a re-analysis of the deposited data

Results flagged for a closer look

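Genes are listed here because the test of the difference between their time changes passed at an adjusted p under 0.05. Each value is the log2 time change (36 h over 18 h) with the 4-1BB agonist minus that in the other arm, so a positive value means a more positive change with the 4-1BB agonist. Against control, among division, p53 and metabolism, the values were Cdkn2d (0.52), Sesn2 (-0.36), Kif11 (-0.23), Ccna2 (-0.26), Nusap1 (-0.33), Slc16a3 (0.74), Pgk1 (0.24), Ddit4 (0.42), Ak4 (0.37), Scd1 (-0.79), Scd2 (-0.21), Myc (-0.23) and Odc1 (0.41). Among Treg, effector and inhibitory receptor genes, the values were Ctla4 (0.44), Tnfrsf18 (0.27), Gzmb (0.92), Tbx21 (0.25), Tnfrsf8 (-0.49), Lgals1 (0.49), Lag3 (-0.55), Tigit (0.35), Cd200 (-0.22), Itgae (-0.46), Serpinb9 (-0.25) and Cd86 (-0.52). Among resting T cell and GIMAP genes, the values were Klf2 (-0.69), Klf3 (-0.43), Tcf7 (-0.34), Gimap3 (0.32), Gimap4 (0.63) and Gimap6 (0.32). Among NF-kB, TNF family, cytokine and STAT5 genes, the values were Nfkbia (-0.23), Traf6 (-0.24), Tnfrsf9 (0.62), Lta (-0.17), Tnfsf11 (-0.28), Il16 (-0.26), Stat5a (-0.49), Pim1 (-0.34) and Pim2 (-0.60). Among early response factors, the values were Atf3 (0.77), Nr4a3 (0.26), Nr4a2 (1.03) and Irf8 (0.26). The other genes against control were Dclk1 (1.55), Ly75 (-0.86), Ncf1 (-0.78), Slamf6 (-0.80), Cacnb3 (-1.68), Slc35b4 (-0.59), Acap1 (0.60), Thy1 (-0.59), Eomes (-1.29), Ighm (-0.36), Fam160a1 (-0.57), Galnt3 (1.03), Trib2 (-0.57) and Unc13a (1.07). Against the TNFR2 agonist, the values were Tbx21 (0.48), Cd44 (-0.25), Itgae (-0.66), Tnfsf4 (-0.81), Igtp (0.24), Irgm1 (0.32), Bcl2l11 (-0.62), Ly75 (-0.25) and Slamf6 (-0.34). Against the DR3 agonist, they were Sesn2 (-0.35), Slc16a3 (0.41), Gzmb (0.84), Tbx21 (0.41), Lgals1 (0.29), Itgae (-0.58), Il12rb2 (0.83), Klf3 (-0.49), Gimap4 (0.35), Tnfrsf9 (0.42), Atf3 (0.47), Nr4a2 (0.44), Lif (0.37), Irgm1 (0.28), Ly75 (-0.31), Ncf1 (-0.28), Slamf6 (-0.52), Acap1 (0.30) and Ighm (-0.21). The calls against control for Cdkn2d, Klf2, Klf3, Lta, Scd1, Unc13a, Galnt3, Cd200, Ak4, Dclk1 and Scd2 ended without 1 or more single libraries, as did those against the TNFR2 agonist for Cd44, Tnfsf4 and Bcl2l11 and those against the DR3 agonist for Ighm, Klf3, Sesn2, Slc16a3, Lgals1 and Ncf1. Without the libraries over 10000 CPM of ribosomal locus transcripts, 20 of these calls against control no longer passed and 38 did, with 1 control library left at 18 h. The values there of those that did not pass were Cdkn2d (0.45), Sesn2 (-0.35), Ak4 (0.33), Scd1 (-0.80), Scd2 (-0.26), Myc (-0.22), Dclk1 (0.92), Tbx21 (0.23), Cd200 (-0.18), Klf3 (-0.35), Nfkbia (-0.22), Traf6 (-0.21), Lta (-0.16), Tnfsf11 (-0.25), Nr4a3 (0.25), Serpinb9 (-0.26), Fam160a1 (-0.49), Unc13a (1.155), Kif11 (-0.28) and Ccna2 (-0.29). Against the TNFR2 agonist 6 no longer passed and 3 did, and the lost ones were Cd44 (-0.26), Tnfsf4 (-0.66), Igtp (0.23), Bcl2l11 (-0.70), Ly75 (-0.27) and Slamf6 (-0.34). Against the DR3 agonist 5 no longer passed and 14 did, and the lost ones were Sesn2 (-0.35), Slc16a3 (0.40), Klf3 (-0.44), Ncf1 (-0.25) and Ighm (-0.22). All of these values kept their direction, and the cause of the lost calls was not tested.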

How the results depend on the processing

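The count of genes changed between 36 h and 18 h with the 4-1BB agonist stayed within 1.5 times of 7313 under every alternative run: 6843 with DESeq2, 7262 with RLE size factors, 7065 with no filter, 6479 of 10336 with a stricter filter, 7825 with only the groups compared, 7305 with the ribosomal locus covariate, and 6611 to 6741 without each replicate in turn. Over the lists, 521 of 700 different genes were called, against 51.1% of all genes tested, and 503 to 508 without each replicate. With the stricter filter 501 of 649 list genes were called, against the 6479 of 10336 above. The lists were chosen with earlier results of these data known, so their higher share is not independent evidence about the lists. The difference from control gave 485 to 590 genes without each replicate in turn, 894 with only the groups compared, 465 with the ribosomal locus covariate and 240 without libraries over 10000 CPM of that locus, an alternative chosen after seeing the data. The difference from the TNFR2 agonist gave 82 genes with no filter, 5 without those libraries and 20 to 103 without each replicate in turn. The difference from the DR3 agonist gave 118 genes with only the groups compared, 37 without those libraries and 41 to 67 without each replicate in turn; apart from the left-out libraries, the cause was not tested. With the replicate number as a block, 7678, 814, 46 and 102 genes were called over time and in the differences from control, the TNFR2 agonist and the DR3 agonist; same-numbered libraries of the 2 times did not deviate together with the 4-1BB agonist (r = -0.104, -0.115 and 0.016) or in control (-0.056, -0.147 and 0.0658), and not in every pair with the DR3 agonist (-0.321, 0.206 and -0.257). With the TNFR2 agonist all 3 values were positive (0.335, 0.111 and 0.257). In that arm replicate 1 had the most ribosomal locus transcripts at both times (15209 CPM at 36 h and 12056 CPM at 18 h). With the DR3 agonist, replicate 1 at 36 h went with replicate 3 at 18 h (0.401), and replicate 3 at 36 h with replicate 1 at 18 h (0.353). Whether the numbers mark a pairing was not tested, and the labels state none. Log2 fold changes over time that turned sign without single replicates ranged over -0.0345 to 0.0057 for Tnfrsf18 and -0.0217 to 0.0064 for Cd4, neither called. The same ranges were -2.66 to 3.12 for Hbb-bs and 0 to 3.14 for Itgam, from levels near 0 CPM. Of the genes that the named-gene rule took and whose time changes are given as called above, none lost its call under an alternative that still tested it. The replicates were few, and changes in genes under a few CPM rest on few counts.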
